A study of Rattus norvegicus with 15 samples.

Results

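Fkbp4, Hsp90aa1, Hsp90ab1, Hspa8, Hspb1 and Hspd1 are 6 chaperone genes that were examined together in rat mesenteric arteries. They were chosen by measured values, since the signals of their probe sets in these arrays were already known when the set was drawn up, so their levels and differences are given here as a description, with no test. The array carried 13 probe sets annotated to a single member, 3 for Fkbp4, 4 for Hsp90ab1, 4 for Hspb1 and 2 for Hspd1. Hspa8 and Hsp90aa1 had none of their own: 2 probe sets were annotated jointly to Hspa8 and Haus8l2, and 2 jointly to Hsp90aa1 and its pseudogene Hsp90aa1-ps17, and these 4 are described under both names. The members with a probe set of their own were thus 4 of the 4736 genes that had one.

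The study set arteries of the SHR strain (spontaneously hypertensive rats) against those of the WKY strain (Wistar-Kyoto, the normotensive strain commonly paired with it). In both strains, collateral arteries, made by occluding neighbouring arteries so that the open vessel carries more flow, were set against control arteries. RNA was measured as MAS5 signals on 15 rat oligonucleotide arrays, of which 3 held WKY and 4 held SHR control vessels and 4 of each strain held collaterals, and all values below are log2 of that signal unless a fold is named. The age of the animals, the time since occlusion and whether each array came from a separate animal were not given in the sources used here, so a spread between arrays may be partly technical.

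Heat shock proteins bind unfolded or partly folded proteins and keep them from clumping until they fold, are handed on or are degraded. Hspa8, the constitutive HSP70, passes client proteins to the dimeric chaperones Hsp90aa1 and Hsp90ab1, and Fkbp4, an immunophilin with peptidyl-prolyl isomerase activity, docks on that dimer and helps steroid receptors reach the hormone-binding state. Hspb1 is a small heat shock protein that is abundant in vascular smooth muscle, where it binds the actin cytoskeleton, while Hspd1 forms the chaperonin of the mitochondrial matrix and is therefore not a cytosolic protein, in contrast to the other 5 members. Stress-activated heat shock factors drive many of these genes through inverted repeats of a GAA unit, the heat shock element.

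The bases before the start sites are shown because most members carry its letters there. The sequences were not used to choose the members, but a set of heat shock genes is not independent of this element, so its share among them is a description only. RefSeq promoters of assembly GRCr8 were held for 5 of the 6 members, and the 250 bases before the start were searched on both strands for GAANNTTC and TTCNNGAA, each of which is its own reverse complement. Of 33469 promoters of this length, 13.5% held either motif, and 4 of the 5 members did, namely Fkbp4, Hspa8, Hspb1 and Hspd1. The longer form with 3 alternating units, GAANNTTCNNGAA or TTCNNGAANNTTC, stood in 0.663% of all promoters and in those of Hspa8 and Hspd1. In the sequences below, written 5′ to 3′ toward the start site, capitals mark the matched units and overlapping matches run together. The first 3 sequences are the 250 bases before the start of Fkbp4 (chr4:163397919-163398168, minus strand), Hspa8 (chr8:50080264-50080513, plus strand) and Hspb1 (chr12:26432302-26432551, minus strand), and the last is a stretch of 30 bases for Hspd1 (chr9:64084256-64084285, minus strand).
Fkbp4: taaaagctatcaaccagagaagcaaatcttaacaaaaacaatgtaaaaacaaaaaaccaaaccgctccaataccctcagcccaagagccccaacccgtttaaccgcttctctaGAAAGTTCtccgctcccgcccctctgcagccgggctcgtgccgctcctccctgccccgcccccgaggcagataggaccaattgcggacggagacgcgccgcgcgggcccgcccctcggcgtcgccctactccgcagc
Hspa8: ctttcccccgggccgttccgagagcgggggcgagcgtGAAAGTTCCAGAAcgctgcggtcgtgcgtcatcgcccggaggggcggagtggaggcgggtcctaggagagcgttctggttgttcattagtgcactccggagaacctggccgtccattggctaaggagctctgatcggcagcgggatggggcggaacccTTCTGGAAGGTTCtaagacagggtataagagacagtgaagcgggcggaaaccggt
Hspb1: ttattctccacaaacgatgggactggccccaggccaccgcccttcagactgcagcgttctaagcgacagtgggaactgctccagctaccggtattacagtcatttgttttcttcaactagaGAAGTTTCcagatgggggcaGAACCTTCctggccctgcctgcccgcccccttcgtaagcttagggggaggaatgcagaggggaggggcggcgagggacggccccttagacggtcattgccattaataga
Hspd1: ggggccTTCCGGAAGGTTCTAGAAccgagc

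The Hspa8 promoter held 4 matches in 2 blocks, at bases -213 to -201 and -55 to -43 from the start. Fkbp4 held a single 2-unit match at bases -137 to -130, and Hspb1 held 2 matches at bases -129 to -122 and -109 to -102. Hspd1 held 3 matches that overlap between bases -242 and -225. In the 250 bases before the start of Hsp90ab1 these letters were not found, which says nothing about binding elsewhere. For Hsp90ab1 and Hspd1 the 250 bases searched lie at least partly within the annotated span of the gene, unlike those of Fkbp4, Hspa8 and Hspb1. A match describes the sequence only and is not evidence of binding in these arteries.

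The arrays were alike in overall scale, and 6512 of 8740 probe sets passed the filter on low values, all 17 described here among them. SHR collateral 3 stood apart: its rank correlation with the other arrays was 0.496 to 0.657, against 0.805 to 0.931 among the other 14, and the geometric mean of its 9 spike-in control signals was 172402, against 10427 to 56516. Differences that use it are therefore given with and without it. As a check of the tissue, the 8 smooth muscle genes measured had a mean log2 signal of 14.49, and none of them lay below the 20th percentile on most arrays. Because the samples are whole vessel pieces, fewer cells of a type and less RNA per cell cannot be told apart in any value below.

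For 15 of the 17 member probe sets, arrays of different groups overlapped in every comparison, and the exceptions were a single probe set each of Fkbp4 and Hspb1. None of the 13 own probe sets, and none of the 4 shared ones, was called in any comparison by limma at an adjusted p under 0.05. The background was close to empty as well: 2 of 6512 probe sets (0.0307%) were called between SHR and WKY control arteries, with 421 at an unadjusted p under 0.05. No probe set (0%) was called between SHR and WKY collateral arteries, between SHR collateral and SHR control arteries, between WKY collateral and WKY control arteries, or for the difference of the collateral changes, with 496, 245, 206 and 124 at an unadjusted p under 0.05. Since the members were chosen by their values in these contrasts, nothing is read from these counts.

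Fkbp4, the Hsp90 co-chaperone, gave 3 different pictures from its 3 probe sets. On rc_AI136977_g_at the 4 SHR control arrays read 10.10, 9.73, 9.95 and 9.81 and the 3 WKY control arrays 8.18, 8.03 and 7.19. The 4 SHR collateral arrays read 9.65, 10.43, 11.39 and 9.44, and the 4 WKY collateral arrays 8.19, 8.93, 9.34 and 9.30. All 8 SHR arrays were above all 7 WKY arrays, and the WKY collateral arrays were all above the WKY control arrays, the nearest pair (8.19 and 8.18) by a small margin. The group means were 10.23 ± 0.89 (SD, n = 4) in SHR collateral, 9.90 ± 0.16 (n = 4) in SHR control, 8.94 ± 0.53 (n = 4) in WKY collateral and 7.80 ± 0.53 (n = 3) in WKY control arteries. In that order the SHR groups differed by less than the larger SD, and the other neighbours by more. In control arteries SHR exceeded WKY by 2.09 ± 0.45 (SE), a 4.27-fold difference, and in collateral arteries by 1.29 ± 0.42, or 0.90 ± 0.37 without SHR collateral 3, which was the highest array of all. WKY collateral exceeded WKY control by 1.14 ± 0.45, while SHR collateral differed from SHR control by 0.33 ± 0.42, or -0.06 ± 0.37 without SHR collateral 3.

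The other Fkbp4 probe sets did not share this order. On rc_AI136977_at, named for the same expressed sequence tag, signals were scattered within the groups. SHR control arrays read 6.18, 8.95, 6.47 and 6.56, SHR collateral arrays 6.64, 6.58, 6.87 and 5.44, WKY control arrays 8.91, 8.41 and 6.92, and WKY collateral arrays 7.09, 7.30, 7.05 and 6.23. SHR was lower than WKY here by 1.04 on the log2 scale in control arteries (difference -1.04 ± 0.74), the opposite direction, with overlapping groups. On the brightest probe set, rc_AI231547_at, the SHR control arrays read 9.67, 9.56, 9.88 and 9.82, the SHR collateral arrays 9.79, 10.25, 10.04 and 9.31, the WKY control arrays 9.63, 9.44 and 10.08, and the WKY collateral arrays 8.27, 9.96, 9.95 and 9.74. There the strain difference in control arteries was 0.01 ± 0.40, and apart from WKY collateral 1 all arrays lay between 9.31 and 10.25. The group means, from 9.85 ± 0.41 in SHR collateral over 9.73 ± 0.14 in SHR control and 9.72 ± 0.33 in WKY control to 9.48 ± 0.81 in WKY collateral arteries, differed between neighbours by less than the larger SD. Over the 14 arrays without SHR collateral 3, rc_AI136977_g_at correlated with rc_AI136977_at at r = -0.40 (rho = -0.51) and with rc_AI231547_at at r = 0.30 (rho = 0.22). A difference between strains in the probed sequence and a difference in the amount of Fkbp4 RNA cannot be told apart from a single probe set of 3.

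**Figure D1:**
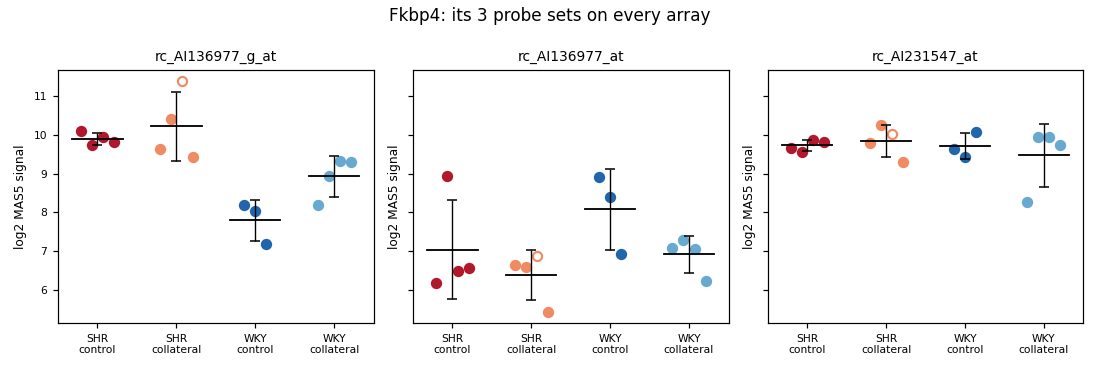
Log2 MAS5 signal (vertical axis) of the 3 Fkbp4 probe sets in the 4 groups (horizontal axis). Each point is an array, the open point is SHR collateral 3, and the black bars are the group mean ± SD. The SHR arrays sit at 9.44 or above and the WKY arrays at 9.34 or below on rc_AI136977_g_at, whereas the groups overlap on rc_AI136977_at and rc_AI231547_at.

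Hsp90ab1, the constitutive form of cytosolic Hsp90, differed little between the groups on its brightest probe set. On its brightest probe set, rc_AI236795_s_at, SHR control arrays read 13.95, 13.44, 14.12 and 13.57, SHR collateral arrays 13.82, 13.64, 13.19 and 14.01, WKY control arrays 13.81, 13.22 and 13.37, and WKY collateral arrays 13.47, 13.99, 13.68 and 13.60. Group means ran in the order SHR control 13.77 ± 0.32 (SD, n = 4), WKY collateral 13.68 ± 0.22 (n = 4), SHR collateral 13.66 ± 0.35 (n = 4) and WKY control 13.47 ± 0.31 (n = 3), and neighbours in that order differed by less than the larger of their SDs. The strain difference was 0.30 ± 0.27 in control arteries and -0.02 ± 0.25 in collateral arteries, or 0.14 ± 0.22 without SHR collateral 3. The probe sets rc_AI007820_s_at and S45392_at followed the same arrays (r = 0.85 and 0.84 with the brightest, and 0.96 with each other, over 14 arrays; 0.73, 0.72 and 0.96 over 15). On S45392_at the SHR collateral arrays read 11.95, 12.40, 11.86 and 12.30 and the WKY collateral arrays 11.56, 11.89, 11.68 and 11.36, so the groups no longer overlapped once SHR collateral 3, at 11.86, was left out, with a difference of 0.59 ± 0.36. The dim probe set rc_AI008074_s_at went its own way, from 3.93 on WKY collateral 4 to 8.97 on SHR collateral 3, and its groups overlapped in every comparison. It differed by 1.56 ± 0.77 between SHR and WKY collateral arteries, a 2.94-fold gap (1.26 ± 0.82 without SHR collateral 3), and by -1.15 ± 0.83 between WKY collateral and WKY control arteries.

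Hsp90aa1, the stress-inducible cytosolic Hsp90, was read only together with its pseudogene. On rc_AI176546_at SHR control arrays read 15.12, 13.81, 14.07 and 15.04, SHR collateral arrays 14.87, 14.66, 13.09 and 15.11, WKY control arrays 14.97, 14.23 and 13.95, and WKY collateral arrays 14.68, 15.42, 14.73 and 15.05. The means ran from WKY collateral 14.97 ± 0.34 (SD) over SHR control 14.51 ± 0.67 and SHR collateral 14.43 ± 0.91 to WKY control 14.38 ± 0.53, with neighbours closer than the larger SD. WKY collateral exceeded WKY control by 0.59 ± 0.44, and the groups overlapped. SHR against WKY gave 0.13 ± 0.44 in control and -0.54 ± 0.41 in collateral arteries, and the latter came to -0.09 ± 0.32 without SHR collateral 3. The second shared probe set, rc_AA944397_at, gave a WKY collateral change of 0.64 ± 0.40 and followed rc_AI176546_at closely (r = 0.89, rho = 0.89) over 14 arrays but not over all 15 (r = 0.48).

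Hspa8 was likewise read only together with Haus8l2. On M11942_s_at SHR control arrays read 14.02, 13.94, 14.30 and 14.45, SHR collateral arrays 14.34, 14.58, 13.34 and 14.52, WKY control arrays 15.23, 14.01 and 13.94, and WKY collateral arrays 14.49, 14.94, 14.23 and 14.20. WKY control 1 and WKY collateral 2 were the highest arrays, and their groupmates lay within the range of the other groups. The means were 14.47 ± 0.34 in WKY collateral, 14.39 ± 0.72 in WKY control, 14.20 ± 0.58 in SHR collateral and 14.18 ± 0.24 in SHR control arteries, closer to each other than the larger SD of any neighbours. SHR against WKY was -0.22 ± 0.35 in control arteries and -0.27 ± 0.33 in collateral arteries (0.02 ± 0.28 without SHR collateral 3). The collateral change was 0.02 ± 0.33 in SHR (0.31 ± 0.28 without that array) and 0.07 ± 0.35 in WKY. The second probe set, rc_AI234604_s_at, was highest on SHR collateral 2 (13.16) and WKY control 1 (13.12), and the other arrays lay between 11.63 and 12.49. Its SHR collateral change was 0.47 ± 0.33 (0.60 ± 0.34 without SHR collateral 3), its WKY collateral change -0.03 ± 0.36, and its strain difference -0.15 ± 0.36 in control and 0.34 ± 0.33 in collateral arteries (0.48 ± 0.34 without that array). Rat Hspa8 and the Hsp90 genes have close relatives and processed copies, so signal from these may be included in both pairs of shared probe sets.

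Hspb1, the small heat shock protein of smooth muscle, overlapped between the groups on 3 of its 4 probe sets. On the brightest, rc_AA998683_g_at, SHR control arrays read 14.67, 13.42, 13.45 and 14.33, SHR collateral arrays 13.17, 14.92, 13.47 and 13.81, WKY control arrays 14.79, 14.03 and 14.02, and WKY collateral arrays 14.08, 15.65, 14.62 and 14.16. The order of the means was WKY collateral 14.63 ± 0.72, WKY control 14.28 ± 0.44, SHR control 13.97 ± 0.63 and SHR collateral 13.84 ± 0.77, and neighbours differed by less than the larger SD. SHR against WKY was -0.31 ± 0.44 in control and -0.79 ± 0.41 in collateral arteries (-0.66 ± 0.43 without SHR collateral 3). On M86389cds_s_at and rc_AI176658_s_at, which followed each other closely (r = 0.92, rho = 0.83 over 14 arrays), the strain differences were 0.21 ± 0.47 and 0.02 ± 0.51 in control arteries and 0.21 ± 0.43 and 0.10 ± 0.47 in collateral arteries. Without SHR collateral 3 the latter came to 0.38 ± 0.45 and 0.21 ± 0.51.

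The remaining Hspb1 probe set, rc_AA998683_at, was the tightest of the 4 and separated the WKY control arteries. Its SHR control arrays read 10.46, 10.74, 10.77 and 10.61, its SHR collateral arrays 10.50, 11.04, 10.66 and 10.69, its WKY control arrays 11.71, 11.25 and 11.44, and its WKY collateral arrays 10.82, 11.05, 11.25 and 10.64. The 3 WKY control arrays were above every other array, WKY collateral 3 only just below the lowest of them. SHR control was below WKY control by a difference of -0.82 ± 0.25, a 1.77-fold gap, and WKY collateral was below WKY control by a difference of -0.53 ± 0.25. This probe set shared little with M86389cds_s_at (r = 0.08 over 14 arrays) and is named for the same sequence tag as rc_AA998683_g_at (r = 0.39). In collateral arteries SHR and WKY overlapped, with a difference of -0.22 ± 0.23 (-0.20 ± 0.22 without SHR collateral 3), so what stood apart here was WKY control and not a whole strain. The separation belonged to 1 probe set of its gene.

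Hspd1, the mitochondrial chaperonin, was read by 2 probe sets that moved together (r = 0.94, rho = 0.92 over 14 arrays). On X54793_at SHR control arrays read 13.51, 12.23, 11.89 and 13.21, SHR collateral arrays 13.44, 12.51, 12.06 and 13.82, WKY control arrays 13.18, 13.01 and 12.81, and WKY collateral arrays 12.99, 13.47, 13.10 and 13.24. The SHR groups were spread widely, with an SD of 0.77 in control and 0.81 in collateral arteries, while the WKY groups had SDs of 0.18 and 0.21. Means ran from WKY collateral 13.20 and WKY control 13.00 to SHR collateral 12.96 and SHR control 12.71, with neighbours apart by less than the larger SD. The strain difference was -0.29 ± 0.41 in control arteries and -0.25 ± 0.38 in collateral arteries, and the latter turned to 0.05 ± 0.35 without SHR collateral 3. SHR collateral against SHR control was 0.24 ± 0.38, or 0.54 ± 0.35 without that array.

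**Figure D2:**
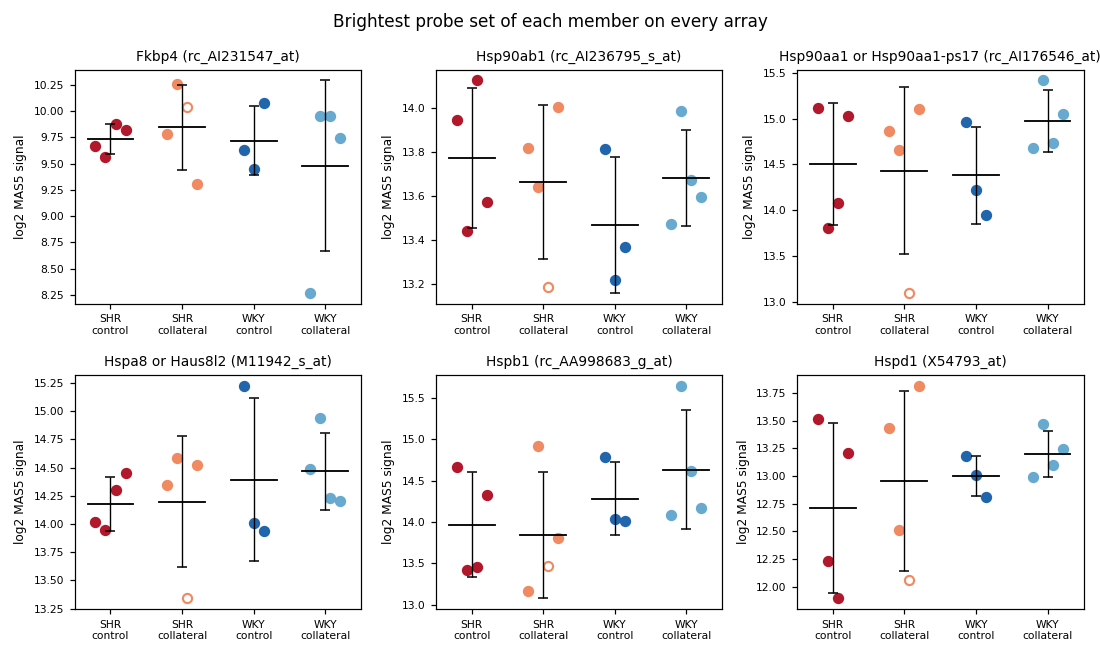
Log2 MAS5 signal (vertical axes) of the brightest probe set of each member in the 4 groups (horizontal axes). Points are arrays, the open point is SHR collateral 3 and black bars are the mean ± SD. The groups overlap in every panel, and single arrays such as WKY control 1 for Hspa8 (15.23) and WKY collateral 2 for Hspb1 (15.65) lie above their groupmates.

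Counted over the 13 own probe sets, 2 did not overlap between SHR and WKY control arteries, against 558 of 6512 tested (8.57%); these were Fkbp4 rc_AI136977_g_at, higher in SHR, and Hspb1 rc_AA998683_at, lower in SHR. Between SHR and WKY collateral arteries 1 did not overlap, again the Fkbp4 probe set, against 3.62% of all tested. None did so between SHR collateral and SHR control arteries, against 1.72%. Between WKY collateral and WKY control arteries 2 did not overlap, against 6.7%, and they were the same Fkbp4 probe set, higher in collaterals, and the same Hspb1 probe set, lower in collaterals. None of the 4 shared probe sets separated any pair of groups. Each comparison shares its groups of arrays, control or collateral, with other comparisons, and the choice of members used the same arrays, so these counts are read no further.

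With each of the 4 genes represented by its brightest probe set, the median member difference between SHR and WKY was -0.14 in control arteries, beside 0.02 over all tested probe sets. In collateral arteries it was -0.13, or 0.10 without SHR collateral 3, beside 0.12 and 0.01 over all. The collateral change had a member median of 0.004 in SHR (0.05 without SHR collateral 3; 0.06 over all) and of 0.21 in WKY (0.003 over all). For the difference of the collateral changes, SHR minus WKY, the median was -0.14 (0.06 without SHR collateral 3; 0.04 over all).

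**Figure D3:**
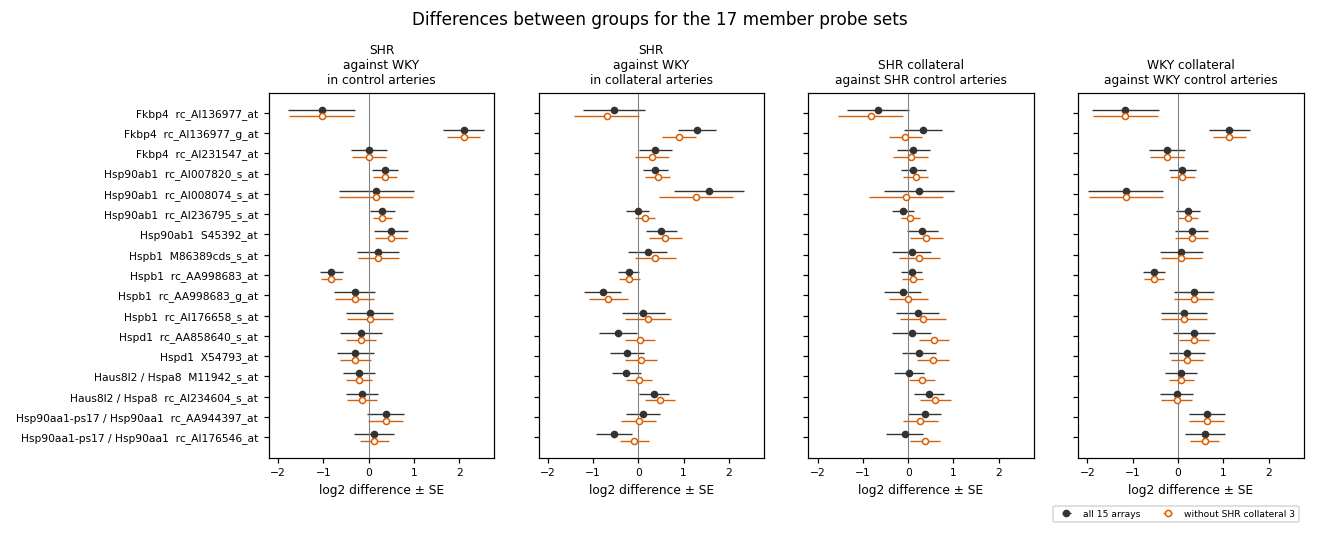
Log2 differences ± SE (horizontal axes) of the 17 member probe sets (rows) in the 4 comparisons of groups (panels), from all 15 arrays (filled) and without SHR collateral 3 (open). The Fkbp4 probe sets rc_AI136977_g_at (2.09) and rc_AI136977_at (-1.04) lie on opposite sides of 0 between the strains in control arteries.

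Some members were high together on single arrays of different groups. Hspa1a, the strongly stress-inducible HSP70 and no member, was the most uneven of the network over single arrays: on Z75029_s_at, SHR control arrays read 9.29, 10.83, 11.02 and 11.02, SHR collateral arrays 11.68, 13.06, 10.003 and 10.87, WKY control arrays 13.88, 9.65 and 10.002, and WKY collateral arrays 11.24, 13.27, 10.09 and 10.11. SHR collateral 2, WKY control 1 and WKY collateral 2 thus stood more than 1 log2 unit above every other array, and each belongs to a different group. The within-group SD of Hspa1a was 1.49, larger than that of 98.8% of tested probe sets, whose median was 0.62. Its strain difference in control arteries was -0.64 ± 0.92 (limma adjusted p = 0.999). Hspa1a and its near-identical copy Hspa1b may both contribute to this signal.

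Of the 7 J-domain co-chaperones tested, Dnajb1 and Dnaja1 were also high on WKY control 1 and WKY collateral 2. Dnajb1, the stress-inducible J-domain protein, read 12.40 on WKY control 1 and 11.50 on WKY collateral 2, and 9.64 to 10.65 on the other 13 arrays. Dnaja1, a farnesylated J-domain protein, read 14.35 and 13.93 on the same arrays, and 11.49 to 13.35 elsewhere. On SHR collateral 2, where Hspa1a was also high, Dnajb1 (10.55) and Dnaja1 (12.99) were not. The second Dnajb1 probe set, rc_AA859648_at, read 10.55 and 10.59 on WKY control 1 and WKY collateral 2 but was highest on SHR collateral 3 (10.95). Other J-domain genes did not stand out on that pair of arrays: Dnaja2 read 12.21 and 12.31 there, Dnajb5 9.15 and 10.06, Dnajb9 10.10 and 9.68, and Dnajc5 11.52 and 11.54, while other arrays reached 12.30, 11.17, 10.89 and 11.74 in the same order of genes. Dnaja4 read 9.07 and 9.96, and 10.01 on SHR collateral 3. Among the members, Hspb1 rc_AI176658_s_at was highest on SHR collateral 2 (14.33) and WKY collateral 2 (14.16), followed by SHR control 1 (13.89) and WKY control 1 (13.87), although Hspa1a was at its lowest on SHR control 1.

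Over the 14 arrays, the Hspa8-shared probe set M11942_s_at followed Hspa1a at r = 0.89 (rho = 0.87), and r was 0.74 over 12 arrays once the 2 arrays of most extreme Hspa1a signal were left out. The second Hspa8-shared probe set, rc_AI234604_s_at, followed Hspa1a at r = 0.77 (rho = 0.66), which came to 0.73 over those 12. Hspb1 rc_AI176658_s_at followed Hspa1a at r = 0.61 (rho = 0.46), which came to 0.40 over those 12. Hspd1 X54793_at did not (r = -0.02, rho = 0.01), nor did the brightest Fkbp4 probe set (r = 0.13, rho = 0.15). Hsp90ab1 rc_AI236795_s_at and the Hsp90aa1-shared rc_AI176546_at gave r = 0.32 each (rho = 0.33 and 0.19), which came to 0.15 and 0.03 over 12 arrays. Among the probe sets compared, the likeness to Hspa1a lay with both Hspa8-shared probe sets. Hspb1 rc_AI176658_s_at, which is not the brightest of its gene, was less close. The other probe sets of Hspb1, Hsp90ab1 and Fkbp4 were not compared with Hspa1a, so the members are not ranked as genes. Hspd1 followed the Hsp90aa1-shared probe set rc_AI176546_at instead (r = 0.80, rho = 0.92), and the highest arrays of both were SHR control 1, SHR collateral 4 and WKY collateral 2. These correlations, from 24 pairs of probe sets computed, are descriptions of the same 14 hybridisations, which share array scaling and RNA quality, and no p is given.

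**Figure D4:**
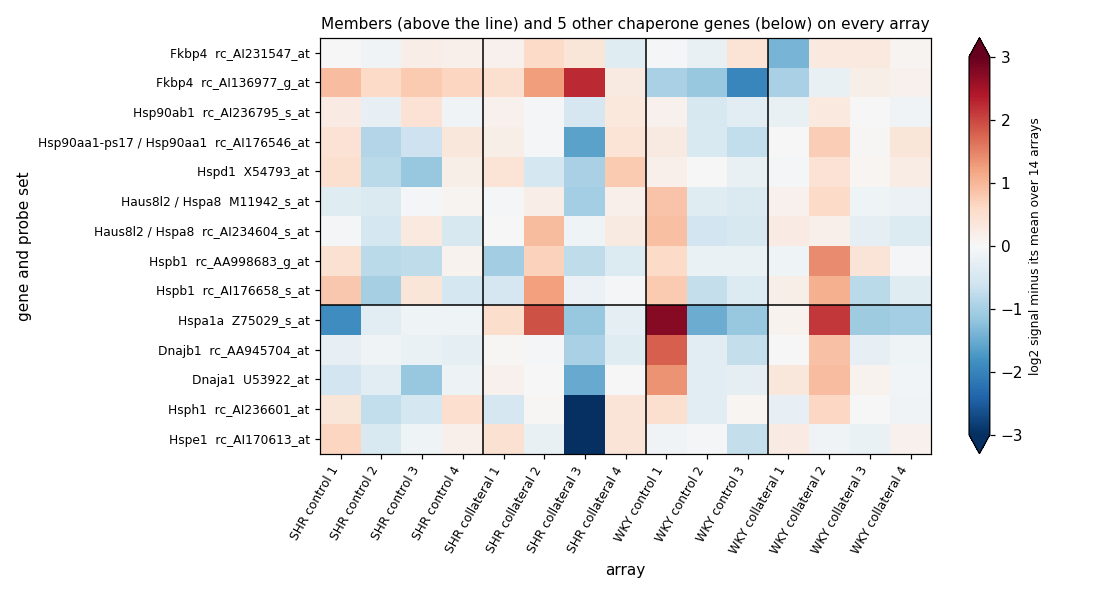
Log2 signal minus its mean over the 14 arrays other than SHR collateral 3 (colour; values beyond 3 in either direction take the end colour) for 9 member probe sets and 5 other chaperone genes (rows) on the 15 arrays (columns). Black lines part the groups; Hspa1a is high on SHR collateral 2 (13.06), WKY control 1 (13.88) and WKY collateral 2 (13.27), in different groups, and the Fkbp4 probe set rc_AI136977_g_at separates the strains.

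Other measures also differed between the strains, and Icam2, unlike Fkbp4 rc_AI136977_g_at, was called in control arteries. Dusp1, like that Fkbp4 probe set, did not overlap between the strains in control or in collateral arteries. Over all arrays, SHR and WKY overlapped in each mean level given here except that of the macrophage genes, where they nearly met at 9.90. Of all tested probe sets, 51.6% were higher in SHR in control arteries and 58.9% in collateral arteries. Of 27 immediate early genes tested, 23 were lower in SHR in control arteries and 23 in collateral arteries; 0 passed the limma test after adjustment in either, and 13 and 12 had an unadjusted p under 0.05. Their mean level ranged from 9.92 to 11.02 over SHR control arrays, 9.55 to 10.84 over SHR collateral arrays, 11.42 to 11.93 over WKY control arrays and 10.96 to 11.56 over WKY collateral arrays. Dusp1, a phosphatase induced within minutes of stress, differed by -1.99 ± 0.41 in control arteries (limma adjusted p = 0.114), Jun by -2.18 ± 0.70 (0.443), Fos by -1.31 ± 0.45 (0.527) and Egr1 by -1.29 ± 0.58 (0.729). Of 6 macrophage genes tested, 5 were higher in SHR control arteries and 6 in SHR collateral arteries, and their mean level was 9.90 to 11.45 on SHR arrays and 9.20 to 9.90 on WKY arrays. Of 8 smooth muscle genes, 6 were lower in SHR control and 8 in SHR collateral arteries (median -0.73 in collaterals, or -0.24 without SHR collateral 3). Their mean levels were 13.59 to 14.79 on SHR control arrays, 12.66 to 15.05 on SHR collateral arrays and 14.45 to 15.11 on WKY arrays, with SHR collateral 3 the lowest. Of 9 endothelial genes, 5 were lower in SHR control arteries and 1, Icam2, an adhesion molecule of endothelium, was called (-3.62 ± 0.61, limma adjusted p = 0.0434); their mean level was 8.17 to 8.84 on SHR control and 8.95 to 9.39 on WKY control arrays, without overlap. On collateral arrays that level was 8.11 to 9.46 in SHR and 8.85 to 9.58 in WKY. Of 7 adipocyte genes, 6 were higher in SHR control arteries (median 0.75) and 5 in SHR collateral arteries (median 1.25, or 0.84 without SHR collateral 3), with mean levels of 9.58 to 12.29 on SHR and 9.07 to 11.21 on WKY arrays. The log2 ratio of 3′ to 5′ control probe signal, a sign of RNA quality, was 1.64 to 2.31 on SHR arrays and 2.07 to 2.62 on WKY arrays. The part of these in the member differences was not tested.

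The wider chaperone network, listed with earlier results of these data known, held 88 genes, of which 42 were on the array and 38 were tested, each by its brightest probe set. None passed limma's test at an adjusted p under 0.05 in any comparison, with 0, 2, 0, 1 and 2 at an unadjusted p under 0.05 in the order used above. In control arteries 17 were higher and 21 lower in SHR (median -0.07), and in collateral arteries 15 were higher and 23 lower (median -0.14, or 0.01 without SHR collateral 3). The collateral change was positive for 23 of 38 in SHR (median 0.14) and for 24 of 38 in WKY (median 0.05).

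Cryab, alpha-B crystallin and like Hspb1 a small heat shock protein of muscle, had the smallest p of the network. Its SHR control arrays read 13.95, 13.25, 13.15 and 13.79, its SHR collateral arrays 12.42, 13.91, 11.75 and 13.35, its WKY control arrays 13.52, 13.38 and 12.93, and its WKY collateral arrays 13.41, 14.63, 14.07 and 14.81. In collateral arteries SHR differed from WKY by -1.37 ± 0.40 (limma adjusted p = 0.383; -0.9995 without SHR collateral 3), in groups that overlap, and it was called only when arrays were weighted by their quality (adjusted p = 0.0434). The collateral change was 0.95 ± 0.43 in WKY (adjusted p = 1.00) and -0.68 ± 0.40 in SHR (0.949), and the difference of these changes was -1.63 ± 0.59 (1.00). Without SHR collateral 3 the latter values were -0.31 and -1.26. Hspb2, which lies in the same family, differed by -0.85 ± 0.45 between the strains in control arteries (0.827), Hspb6 by 0.42 ± 0.29 (0.935), and the lens crystallin Cryaa by 1.12 ± 0.60 in collateral arteries (0.666), or 0.61 without SHR collateral 3, its highest array at 12.16.

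Among the partners of Hsp90, the adaptor Stip1, which bridges it to HSP70, was dim, with signals of 5.49 to 9.76, and differed by 1.33 ± 0.74 between strains in control arteries (limma adjusted p = 0.855). Ttc4, a tetratricopeptide protein that binds Hsp90, differed by -1.28 ± 0.63 there (0.804) and by 1.02 ± 0.59 in collateral arteries (0.685), so that its difference of collateral changes was 2.30 ± 0.86 (1.00). Without SHR collateral 3 these last values were 1.27 and 2.56. Cdc37, which brings kinases to Hsp90, and St13, which binds HSP70, were at 0.34 ± 0.28 (0.976) and -0.05 ± 0.37 (0.999) between strains in control arteries. Chordc1, another Hsp90 partner, showed a WKY collateral change of 0.53 ± 0.31 (1.00). Of the other immunophilins, Fkbp1a on its brightest probe set differed by -0.50 ± 0.29 between strains in collateral arteries (0.687), or -0.24 without SHR collateral 3. Its probe sets D86641_at and rc_AA875594_s_at went the other way there, by 0.61 ± 0.32 and 0.29 ± 0.26, so Fkbp1a had no single direction. Fkbp3 differed by 0.58 ± 0.34 between SHR collateral and SHR control arteries (0.949), or 0.58 without SHR collateral 3.

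Hspe1, the co-chaperonin that caps the Hspd1 ring, read 13.03 to 14.38 on 14 arrays and 10.70 on SHR collateral 3. Its strain difference in control arteries was 0.35 ± 0.58 (limma adjusted p = 0.999). Hsph1, a nucleotide exchange factor for HSP70, showed the same drop on SHR collateral 3, to 8.12 against 11.10 to 12.46 elsewhere, and its SHR collateral change went from -0.85 ± 0.62 (0.949) to 0.08 without that array. Dnaja1 differed by -0.80 ± 0.44 between strains in control arteries (0.848). The testis-enriched HSP70 Hspa1l differed by 1.74 ± 0.68 in collateral arteries (0.579), or 1.29 without SHR collateral 3, and by -1.18 ± 0.74 between WKY collateral and WKY control arteries (1.00). Both differences include WKY collateral 1, which read 4.51 for Hspa1l, against 6.86 to 8.38 on the other WKY collateral arrays.

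The endoplasmic reticulum relatives Hsp90b1, Hspa5 and Hyou1 belong to another compartment, and none passed the test. Hsp90b1 showed a WKY collateral change of 0.58 ± 0.33 (limma adjusted p = 1.00), Hspa5 a strain difference of -0.54 ± 0.33 in collateral arteries (0.690; -0.21 without SHR collateral 3), and Hyou1 one of 0.45 ± 0.30 in control arteries (0.915). On the dimmer Hyou1 probe set U41853_at that strain difference had the other sign, at -0.57 ± 0.70. Hsf1, the factor that binds heat shock elements, differed by 0.07 ± 0.42 between strains in control arteries (0.999). Dnajc5, a J-domain protein of secretory vesicles, gave an SHR collateral change of -0.29 ± 0.21 (0.949; -0.19 without SHR collateral 3) on its brightest probe set. Its dimmer probe set U39320_at went the other way, at 4.7 to 7.1 on SHR control and 7.4 to 9.3 on SHR collateral arrays, with SHR collateral 3 the highest. The glucocorticoid receptor Nr3c1, which Fkbp4 and Hsp90 help to fold, read 7.70 to 9.30 and differed by -0.46 ± 0.41 (0.999), and the progesterone receptor Pgr, read at 5.57 to 9.71, by -0.02 ± 0.83 (0.999), between strains in control arteries.

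Each member's brightest probe set was compared with other genes for likeness in log2 signal over the 14 arrays. The genes most like Fkbp4 (rc_AI231547_at) were Adcy10, Psmd13 and Tagln3 (r = 0.91, 0.89 and 0.89, and 0.88, 0.46 and 0.87 over all 15 arrays). On that probe set WKY collateral 1, at 8.27, lay below all other arrays, and r was not computed without it. For Hsp90ab1 they were Ppp2cb, Cyp51 and Slc5a6 (0.82, 0.81 and 0.80; 0.86, 0.64 and 0.77 over 15). For Hspb1 they were Akap12, Ppard and Ngfr (0.80, 0.79 and 0.78; 0.77, 0.79 and 0.39 over 15), and for Hspd1 Papola, Ywhah and Ncbp2 (0.90, 0.88 and 0.85; 0.91, 0.77 and 0.76 over 15). They are the highest values among all named genes tested, over few arrays, and describe likeness only; the values of Psmd13 and Ngfr rest on leaving out SHR collateral 3.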

How the data were processed

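RNA of 15 rat mesenteric artery samples was hybridised to Affymetrix arrays. The deposited signal values are MAS5 intensities on a linear scale, made with GCOS and MAS5, per the submitters' processing notes; in every array the authors' values share a trimmed mean (1001.06 to 1001.75 with 2% trimmed at each end). Values under 1 (12 of all) were set to 1 before log2. Probe sets were named by the platform annotation: of 8740, 7006 had 1 symbol, 308 several and 1426 none. A probe set was tested if 3 or more arrays had it at or above their own 40th percentile. Group means were estimated over all 15 arrays with limma (3.58.1; R 4.3.3), using a variance trend, and p-values were adjusted over the 6512 probe sets by Benjamini-Hochberg. It was tested on simulated data. SEs are moderated.

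Members and gene lists were chosen with earlier results of these data known. A further 2 probe sets, annotated to Asb2 and Hspb1 or to a longer gene list, were left out. The median over members had been planned for 6 genes and covers the 4 with probe sets of their own; 6 genes are an alternative. Named genes were every member probe set, the 3 smallest p per direction and comparison in the network, fixed chaperone partners and receptors where tested, 4 early genes and the 3 genes most like each member. Deviations of same-numbered control and collateral arrays of a strain correlated at r -0.07 to 0.31 (7 pairs, 2 over 0.1). Differently numbered arrays of a strain gave r -0.27 to 0.11, below WKY pairs 1 (0.31) and 3 (0.17). Whether the numbers mark pairs was not tested, and the main fit did not treat them as pairs. Alternatives were other normalizations, filters, variance models, blocks and leaving out each array.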

Additional observations from a re-analysis of the deposited data

Results flagged for a closer look

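Of 87 groups of 4 arrays examined among the 17 member probe sets and 12 chaperone partners, 8 held a value far from the other 3 (Dixon's ratio above its 95% critical value); chance gives about 1 in 20. For Fkbp4 these were SHR control 2 on rc_AI136977_at, at 8.95 against 6.18 to 6.56, and WKY collateral 1 on rc_AI231547_at, at 8.27 against 9.74 to 9.96. For Hsp90ab1 it was WKY collateral 2 on rc_AI007820_s_at, at 12.83 against 12.32 to 12.36. Hspb1 on M86389cds_s_at was high on SHR collateral 2, at 13.08 against 11.29 to 11.46, and on WKY collateral 2, at 12.36 against 11.32 to 11.33. Hspa1a was low on SHR control 1, at 9.29 against 10.83 to 11.02. On SHR collateral 3, Dnaja1 read 11.49 against 12.99 to 13.14 and Pgr 9.71 against 6.60 to 6.93. WKY control, with 3 arrays, was not examined this way.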

How the results depend on the processing

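The count of probe sets called between SHR and WKY control arteries, 2, was 0 with no filter, 0 with a 60th percentile filter, 1 without the variance trend, 14 with array weights and 7 with only the groups compared; leaving out 1 array at a time gave 0 to 6. Between SHR and WKY collateral arteries the count of 0 became 26 with array weights and 2 with only the groups compared, and ranged from 0 to 7 when 1 array was left out, 7 being without SHR collateral 4. With array weights 1 of the 17 member probe sets, Fkbp4 rc_AI136977_g_at, was among the 14, and 1 network gene, Cryab, was called in collateral arteries (difference -1.55 ± 0.33, limma adjusted p = 0.0434); no other alternative called a network gene. The causes of these changes were not tested.

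Of 752 member values under alternatives 748 moved by less than 1 within-group SD, and all 132 medians did, although medians this close to 0 changed sign. The mean of a gene's probe sets gave medians of 0.05 and 0.10 for the strain in control and collateral arteries, and equal array medians gave -0.37 in collateral arteries; the values that moved by more were 3 of Hsp90ab1 under the former (0.60, -0.13 and 0.27) and Hspb1 rc_AA998683_at under the latter (-0.46). Taking the shared probe sets as Hspa8 and Hsp90aa1, chosen after seeing the data, gave medians of -0.10, -0.26, -0.03, 0.21 and -0.19. With a fixed replicate block, which drops WKY collateral 4, the collateral medians were 0.004 in SHR and 0.21 in WKY, and a random block (correlation 0.09) changed no call. Fkbp4 rc_AI136977_g_at stayed between 1.79 and 2.28 in control arteries. Array number limits all of this: dim probe sets such as rc_AI136977_at, with 3 to 4 arrays a group, have SEs near 0.7.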
